A study of Mus musculus with 6 samples.

Results

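DEAD and DEAH box RNA helicases are enzymes that use ATP to unwind short RNA duplexes or to strip proteins from RNA, and they are named after the one-letter code of an ATP-binding motif. They act at nearly every step in the life of an RNA, from ribosome assembly in the nucleolus through splicing and export to translation, decay and the sensing of foreign RNA. In growing and tumour cells, insulin and growth factor signals raise protein synthesis, a process that draws on several of these enzymes. The genes described here were those whose probes carried a single mouse gene symbol beginning with Ddx or Dhx followed by a digit, with Ddx21 left out by the rule. Genes were kept when a probe had a detection p under 0.05 on at least 3 of the 6 arrays. The array named 45 such genes with 93 probes, and 38 of the 45 were kept, 23 named Ddx and 15 named Dhx, out of 9478 genes kept in all. The family was chosen with earlier results of these data known. The excluded Ddx21 did not pass the threshold used below either, but it had a smaller p than any kept member, with a log2 change of 0.49 and a limma adjusted p of 0.112.

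The samples were Mvt-1 cells, an established line from a mammary tumour of a mouse carrying Myc and Vegf transgenes driven by the mouse mammary tumour virus promoter, and the line is the study's single model here. All cells were starved of serum for 16 h. The vehicle group held 3 arrays of cells without insulin, and the insulin group held 3 arrays of cells given insulin at 10 nM for 90 min. The labels do not say that replicates were independent cultures, and the spread behind every p-value may therefore be technical.

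Array medians of the probe signal lay between 76.0 and 77.1, from 38.9% to 40.3% of probes were detected per array, and pairs of arrays correlated at 0.988 to 0.992 over the genes tested. Of 11 mammary epithelial markers named on the array, 6 were kept. Krt8, Krt18, Cldn3 and Esr1 were detected on 6 arrays, Krt14 on 4 and Cdh1 on 3. Cldn7 was detected on 2 arrays, and Epcam, Krt19, Krt5 and Elf5 on 0 arrays. Of 10 markers of stromal, vascular, blood and fat cells, 1 was kept, Pdgfra. It was detected on 6 arrays, with signals from 140.7 to 226.8, against 140.7 to 187.3 for Cldn3. None of the 7 kept markers passed the threshold for insulin against vehicle (limma, adjusted p under 0.05).

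Each of the 38 kept helicases was detected on all 6 arrays, and so were 8519 of the 9478 genes kept in all. Of the named family 84.4% was kept, against 49.7% of the 19057 genes named on the array. Of the 7 genes not kept, Dhx40 came closest, with its best probe detected on 2 arrays and signals from 75.8 to 81.2. Ddx4 and Ddx59 were detected on 1 array each. Ddx25, Ddx42, Ddx55 and Ddx56 were detected on 0 arrays. Ddx4, the germ cell helicase known as Vasa, and Ddx25, a helicase of developing sperm, are germ line genes, whereas Ddx42 acts in splicing and Ddx55 and Ddx56 in assembly of the large ribosomal subunit. Each of the last 3 had a single probe on the array, so the missing signal is that of 1 probe.

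ETS core letters stood in most of the family's promoters, a sequence feature that the choice of members did not use. RefSeq windows on GRCm38.p6, running from 250 bases before to 50 bases after each annotated start, were found for 33 of the 38 genes, 43 windows in all, and were missing for Ddx6, Ddx11, Ddx39a, Dhx38 and Dhx58. The letters CGGAAG, or CTTCCG on the other strand, which form the core bound by ETS transcription factors, stood in the windows of 21 of the 33 genes, or 63.6%, against 37.1% of the genes tested. Counted by window the share was 53.5%, against 31.8% for genes tested and 16.9% for all promoters in the table. The E-box CACGTG, the site of MYC and related factors, which reads the same on both strands, stood in 6.98% of the family's windows against 10.1% of windows of genes tested and 7.15% of all. It was found for 3 genes, Ddx5, Dhx33 and Dhx35. The FOXO letters TGTTTAC, or GTAAACA, were found for Ddx5, Dhx8 and Dhx32, in 6.98% of windows against 2.55% of windows of genes tested and 3.65% of all. The TATA letters TATAAA, or TTTATA, were found for 5 genes, in 11.6% of windows against 7.09% of windows of genes tested and 13.6% of all. The median GC content of the windows was 60.0%, against 61.0% for genes tested and 52.7% for all promoters. Of the 44 motif occurrences in the family, 1 overlapped another, in Dhx32, where TTTATA runs into TATAAA. These are matches of letters with no test, and neither binding nor an effect on the measured levels was examined.

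The 4 windows below show how the motifs sit, with every match to a motif above in capitals and all other bases in lower case, 5′ to 3′ on the strand of the gene. Ddx5 is shown because it had the largest insulin difference of the family and 3 kinds of motif in 1 window, at chr11:106788858-106789157 on the minus strand, 1 of its 3 windows. Its ETS core starts 114 bases before the annotated start, its E-box 30 bases before it and its FOXO letters 40 bases after it. Ddx10, at chr9:53248063-53248362 on the minus strand, is shown for its 4 ETS cores, the most of any member. Dhx37, at chr5:125433999-125434298 on the minus strand, is shown as a gene whose insulin arrays lay above its vehicle arrays. Ddx3x, at chrX:13280772-13281071 on the plus strand, holds no exact match to the letters of the 4 motifs. It does hold tatataag, a run close to the TATA letters that the exact search did not count.
Ddx5: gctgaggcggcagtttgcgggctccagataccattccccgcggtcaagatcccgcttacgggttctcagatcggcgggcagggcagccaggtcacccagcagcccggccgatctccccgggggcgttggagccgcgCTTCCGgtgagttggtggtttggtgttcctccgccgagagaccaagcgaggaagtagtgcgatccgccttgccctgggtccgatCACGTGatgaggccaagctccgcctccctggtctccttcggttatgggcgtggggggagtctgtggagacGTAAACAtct
Ddx10: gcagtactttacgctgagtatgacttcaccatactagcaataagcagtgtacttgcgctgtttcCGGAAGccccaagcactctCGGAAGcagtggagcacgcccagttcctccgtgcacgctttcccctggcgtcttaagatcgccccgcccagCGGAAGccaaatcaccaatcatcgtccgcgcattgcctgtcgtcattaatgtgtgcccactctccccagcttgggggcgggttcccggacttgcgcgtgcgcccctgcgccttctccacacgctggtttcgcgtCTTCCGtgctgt
Dhx37: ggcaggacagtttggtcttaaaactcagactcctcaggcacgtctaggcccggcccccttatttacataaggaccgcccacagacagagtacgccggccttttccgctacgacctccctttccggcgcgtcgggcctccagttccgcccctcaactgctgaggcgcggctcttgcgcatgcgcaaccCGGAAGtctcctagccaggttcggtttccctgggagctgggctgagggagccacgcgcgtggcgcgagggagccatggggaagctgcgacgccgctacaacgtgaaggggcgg
Ddx3x: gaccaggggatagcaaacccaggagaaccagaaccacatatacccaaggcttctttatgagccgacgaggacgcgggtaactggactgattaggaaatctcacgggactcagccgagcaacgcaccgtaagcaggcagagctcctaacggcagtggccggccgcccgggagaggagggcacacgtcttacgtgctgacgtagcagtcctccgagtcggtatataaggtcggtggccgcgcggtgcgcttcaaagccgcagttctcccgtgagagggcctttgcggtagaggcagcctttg

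The comparison of insulin with vehicle asked which of these transcripts differ 90 min after insulin reaches starved tumour cells. None of the 38 helicase genes passed the threshold (limma with Benjamini-Hochberg adjustment over all 9478 genes), against 0.464% of all genes tested. The lowest adjusted p of the family was 0.241. At an unadjusted p under 0.05 there were 4 higher members (4.8% of all genes tested) and 0 lower members (6.15% of all genes). The 4 were Ddx39a, Ddx5, Ddx31 and Dhx37. The 3 insulin arrays lay above all 3 vehicle arrays for 3 members (6.59% of all genes) and below them for 1 member (9.34%), so 34 of the 38 had groups that overlapped. Changes ran from -0.24 to 0.52 on the log2 scale, with a median of -0.0021 against -0.015 over all genes, and 18 were positive and 20 negative. The spread of the changes over members was 0.18 (SD), against 0.19 over all genes.

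**Figure D1:**
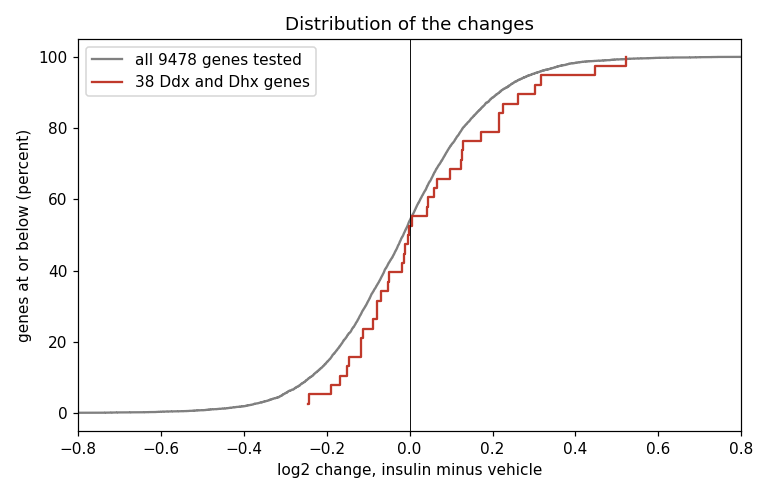
Cumulative share of genes, in percent, against the log2 change of insulin minus vehicle, for the 38 Ddx and Dhx genes (red) and all 9478 genes tested (grey). Both curves cross the middle near 0, at medians of -0.0021 and -0.015, and the red curve stays between -0.24 and 0.52.

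The intervals below are those of the 1 probe in use for each gene, and further probes are not counted in them. They rest on the spread between replicates, which may be technical, so they do not bound the effect of insulin. The 95% interval of the change lay within 1.5-fold in either direction for 33 of 38 members, or 86.8%, against 87.9% of all genes tested. The 5 members with wider reach were Ddx5, Ddx39a, Ddx3x, Ddx31 and Dhx16. The median interval reached 0.29 to either side of the estimate on the log2 scale.

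**Figure D2:**
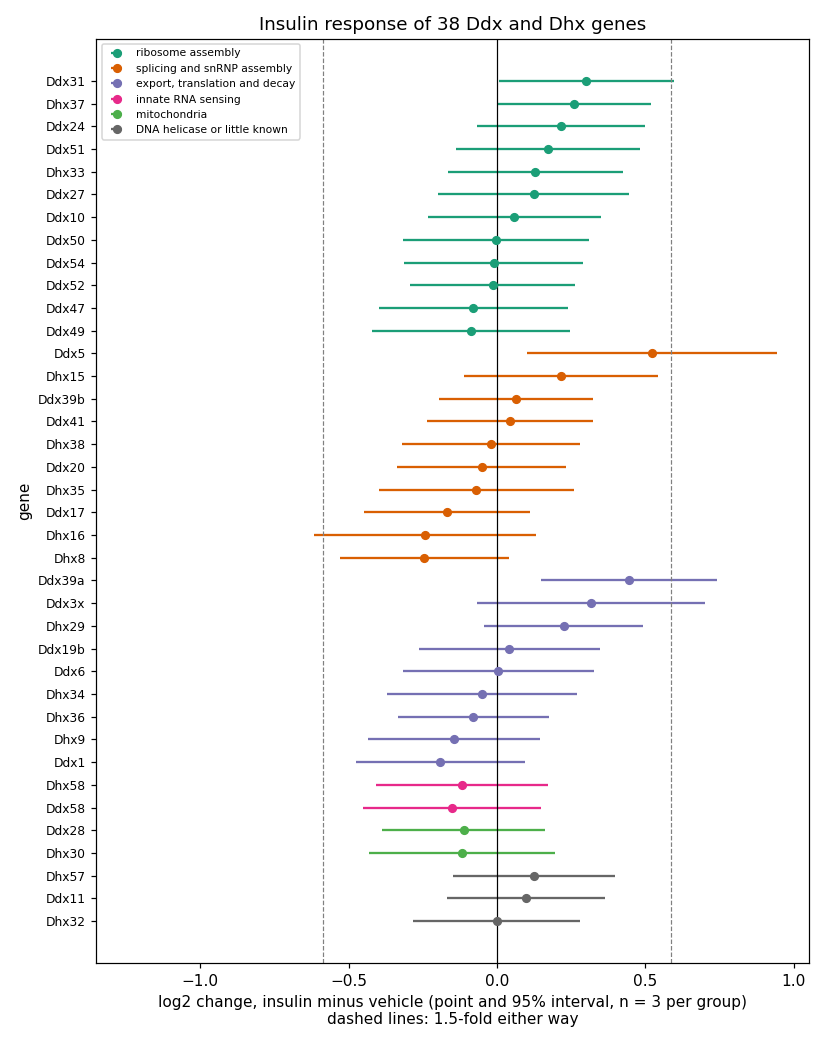
Log2 change of insulin minus vehicle for each of the 38 genes with its 95% interval from limma (n = 3 per group), coloured by role and ordered by size within a role; dashed lines mark 1.5-fold either way. The intervals of Ddx5, Ddx39a, Ddx31 and Dhx37 lie above 0, and 33 of 38 stay between the dashed lines.

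Helicases of ribosome assembly formed the largest role group, with 12 of 14 named genes kept. None passed the threshold, 7 changes were positive and 5 negative, and the median was 0.091 against -0.015 over all genes. Dhx37, which acts in maturation of the small ribosomal subunit, had log2 intensities of 5.95, 5.84 and 5.75 on the vehicle arrays and 6.09, 6.10 and 6.13 on the insulin arrays. All its insulin arrays lay above its vehicle arrays, with the insulin arrays nearly equal (SD 0.023, n = 3). Its change was 0.26 ± 0.12 (SE; limma adjusted p = 0.450). Ddx31, a nucleolar helicase of ribosome assembly, read 5.24, 5.06 and 5.10 with vehicle and 5.17, 5.56 and 5.59 with insulin. Here insulin replicates 2 and 3 were high while insulin replicate 1 lay among the vehicle arrays. Its change was 0.30 ± 0.14 (limma adjusted p = 0.443), and a further probe gave 0.27, with every insulin array above every vehicle array. Both genes were dim, and with the authors' deposited processed values, which have no background correction, the changes were 0.14 for Dhx37 and 0.12 for Ddx31.

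Ddx24, a nucleolar helicase, had a log2 change of 0.22 ± 0.13, with further probes at 0.48 and 0.039. Ddx51 (0.17) and Ddx27 (0.12), both needed for the large subunit, and Dhx33 (0.13), a nucleolar helicase that promotes transcription of ribosomal RNA genes, also had positive values, with 95% intervals that included 0. Ddx10 stood at 0.059. Ddx50, the close relative of the excluded Ddx21, stood at -0.0030 ± 0.15, with 6.88 in both groups, and its further probe at 0.070. Ddx52 (-0.015), Ddx54 (-0.011), Ddx47 (-0.079) and Ddx49 (-0.088) completed the group. Of its 12 changes 8 were smaller than their own standard error, as were 5439 of the 9478 over all genes tested. The probes of Ddx49 disagreed in sign, with 0.078 at the further probe. Those of Ddx47 gave 0.0062 and -0.17 beside the value above. At the Ddx47 probe with -0.17 every insulin array lay below every vehicle array.

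Helicases of splicing and of snRNP assembly numbered 10 of 11 named, with 4 positive and 6 negative changes and a median of -0.035. Ddx5, also called p68, remodels RNA in splicing and microRNA processing and is a transcriptional coregulator. Its log2 intensities were 6.40, 7.47 and 7.09 with vehicle and 7.41, 7.69 and 7.43 with insulin. The groups overlapped, because vehicle replicate 2 lay above insulin replicates 1 and 3, and vehicle replicate 1 stood far below the rest. The change of 0.52 ± 0.20 (1.44-fold; limma adjusted p = 0.357) was the largest of the family in this processing. Without vehicle replicate 1 it was 0.23 (adjusted p = 0.686), and without vehicle replicate 2 it was 0.76 (adjusted p = 0.146). The other 2 probes named Ddx5 were not detected on 3 arrays, so the value rests on 1 probe. Ddx17, the paralog of Ddx5 known as p72, had a change of -0.17 ± 0.13, also from 1 detected probe of 4. Its vehicle arrays read 11.93, 11.96 and 12.09 and its insulin arrays 12.03, 11.74 and 11.70, so the paralogs had opposite signs, both within overlapping groups.

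The DEAH enzymes that drive the steps of the spliceosome cycle had changes of both signs, and none passed the threshold. Dhx8, which releases the spliced messenger, had the most negative change of the family, at -0.24 ± 0.13 (limma adjusted p = 0.540). Dhx16, which acts before the first catalytic step, stood at -0.24 ± 0.18. Both were dim, with signals from 109.2 to 129.6 for Dhx8 and from 85.0 to 109.2 for Dhx16. Over 14 alternatives Dhx8 ran from -0.35 to -0.12 and Dhx16 from -0.39 to -0.051. Dhx38, which acts before the second step, stood at -0.019 ± 0.14. Dhx15, which takes spliceosomes apart, stood at 0.22 ± 0.15, but its further probe gave -0.087. Of the others, Ddx39b, which loads the export complex on spliced messengers and acts in early spliceosome assembly, stood at 0.065, and its further probe at 0.015. Ddx41, tied to splicing and to myeloid malignancy in humans, stood at 0.044. Ddx20, the Gemin3 subunit of the SMN complex that assembles snRNPs, stood at -0.051, and Dhx35 at -0.070.

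All 9 named helicases of export, translation and decay were kept, with 5 positive and 4 negative changes and a median of 0.0052. Ddx39a, the paralog of Ddx39b that acts in messenger export, had the smallest p of the family. Its log2 intensities were 5.11, 4.84 and 4.91 with vehicle and 5.52, 5.14 and 5.53 with insulin. Every insulin array lay above every vehicle array, although insulin replicate 2 exceeded vehicle replicate 1 by little. The change was 0.45 ± 0.14 (1.36-fold; limma adjusted p = 0.241, from 0.121 to 0.485 over 14 alternatives). Ddx39a was dim, with signals from 86.5 to 105.6, and with the authors' deposited processed values its change was 0.17. Its paralog Ddx39b lay at 0.065, with overlapping groups.

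Ddx3x, an X-linked helicase that helps messengers with structured leaders start translation, read 8.97, 9.74 and 9.32 with vehicle and 9.59, 9.98 and 9.41 with insulin. As for Ddx5, vehicle replicate 1 was the lowest array and insulin replicate 2 the highest. The change was 0.32 ± 0.18 (limma adjusted p = 0.562), it was 0.13 without vehicle replicate 1, 0.155 without insulin replicate 2 and 0.51 without vehicle replicate 2, and a further probe gave 0.11. Dhx29, which helps the small ribosomal subunit scan structured leaders, read 6.36, 6.15 and 6.41 with vehicle and 6.48, 6.62 and 6.49 with insulin. Its arrays did not overlap, the change was 0.22 ± 0.13 (limma adjusted p = 0.557), and it was 0.13 with the authors' deposited values and 0.15 without vehicle replicate 2. Dhx36, which unwinds G-quadruplexes, was the single member with every insulin array below every vehicle array. It read 9.53, 9.56 and 9.59 with vehicle against 9.51, 9.51 and 9.42 with insulin, a change of -0.079 ± 0.12 (limma adjusted p = 0.863), or -0.050 without insulin replicate 3. Dhx29 and Dhx36 were singled out after their values were seen.

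Ddx6, which represses translation and promotes decapping in processing bodies, read 7.41, 7.71 and 8.03 with vehicle and 7.61, 7.69 and 7.86 with insulin. The insulin arrays lay inside the range of the vehicle arrays, at a change of 0.0052 ± 0.15 (limma adjusted p = 0.997), which ran from -0.15 to 0.16 with 1 array left out. Its 3 further detected probes gave 0.14, 0.077 and 0.33. Dhx9, also called RNA helicase A, a nuclear enzyme that binds transcription complexes and viral RNA, read 6.39, 5.96 and 6.14 with vehicle and 5.94, 5.98 and 6.12 with insulin. Its change was -0.15 ± 0.14 (limma adjusted p = 0.759), and a further probe, detected on 3 arrays, gave 0.25. The change was -0.030 without vehicle replicate 1, the highest array, and -0.25 without vehicle replicate 2. Ddx1, a partner of the transfer RNA ligase, stood at -0.19 ± 0.13 and its further probe at -0.0018. Ddx19b, which strips proteins from messengers at the nuclear pore, stood at 0.042. Its further probe gave 0.14, with every insulin array above every vehicle array. That probe was dim, detected on 5 arrays with signals from 78.6 to 85.3. Whether either probe named Ddx19b also reads its near-identical paralog Ddx19a was not tested. Dhx34, a factor of nonsense-mediated decay, stood at -0.051.

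**Figure D3:**
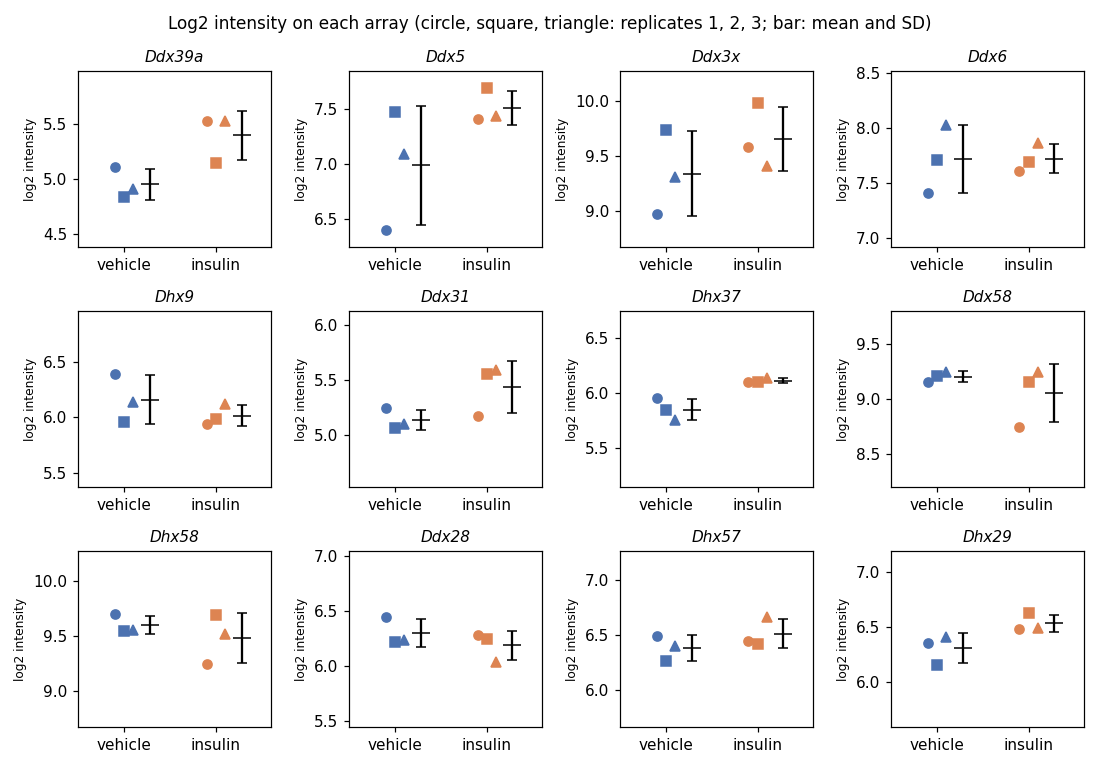
Log2 intensity on each array for 12 of the helicase genes, with vehicle in blue and insulin in orange, replicates 1, 2 and 3 as circle, square and triangle, and the mean and SD (n = 3) beside each group; every panel spans the same length of the log2 scale. Groups are apart in the panels of Ddx39a, Dhx37 and Dhx29, and vehicle replicate 1 is the lowest point for Ddx5, Ddx3x and Ddx6.

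Of the helicases that sense viral RNA, Ddx58, known as RIG-I, and Dhx58, known as LGP2, were both kept. Ddx58 read 9.16, 9.21 and 9.25 with vehicle and 8.75, 9.16 and 9.25 with insulin. The vehicle arrays were tight (SD 0.048, n = 3) and insulin replicate 1 alone was low, giving a change of -0.15 ± 0.14 (limma adjusted p = 0.756). Its further probes gave 0.12 and 0.075. Both were dim, with signals from 86.1 to 93.8 for the former. The latter was detected on 3 arrays, with signals from 73.4 to 82.3. The probe in use had signals from 475.6 to 684.9. Dhx58 read 9.70, 9.54 and 9.55 with vehicle and 9.24, 9.69 and 9.51 with insulin, a change of -0.12 ± 0.14 (limma adjusted p = 0.812). The same insulin array was lowest for both sensors, and without it the change was -0.00042 for Ddx58 and 0.0010 for Dhx58. Without insulin replicate 3 Ddx58 stood at -0.25, and Dhx58 stood at -0.22 without insulin replicate 2 and -0.069 without vehicle replicate 1. Further probes for Dhx58 gave -0.085, -0.083 and 0.077, the last detected on 3 arrays with signals from 77.1 to 82.8.

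The mitochondrial helicases had like values. Ddx28, which assembles the large subunit of the mitochondrial ribosome, read 6.45, 6.22 and 6.23 with vehicle and 6.28, 6.24 and 6.04 with insulin, a change of -0.11 ± 0.13 (limma adjusted p = 0.812). Its groups overlapped, with insulin replicate 3 the lowest array and vehicle replicate 1 the highest. The change was -0.037 without the former and -0.039 without the latter. Dhx30, a factor of mitochondrial ribosome assembly, stood at -0.12 ± 0.15, while a further probe detected on 3 arrays gave 0.19. Of the remaining genes, Dhx57, a little known DEAH protein, read 6.50, 6.26 and 6.41 with vehicle and 6.45, 6.43 and 6.67 with insulin, a change of 0.13 ± 0.13 (limma adjusted p = 0.784). It was 0.050 without insulin replicate 3 and 0.063 without vehicle replicate 2. Ddx11, which despite its name is a DNA helicase of sister chromatid cohesion, stood at 0.097 ± 0.13, and Dhx32 at -0.0013 ± 0.13.

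No array was high or low for the whole family. Between 16 and 23 of the 38 members lay above their own 6-array mean on each array, with 23 on vehicle replicate 1 and 16 on vehicle replicate 3. Vehicle replicate 2 was the lowest of the 6 arrays for 13 members, and insulin replicate 3 for 3. The shares over all genes are not given here, so whether these counts are particular to the family was not tested. The difference between a member's highest and lowest array had a median of 0.50 on the log2 scale, against 0.44 over all genes. It was widest for Ddx5, at 1.29, followed by Ddx3x at 1.01 and Dhx16 at 0.96, in which vehicle replicate 3 was the highest and insulin replicate 2 the lowest.

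**Figure D4:**
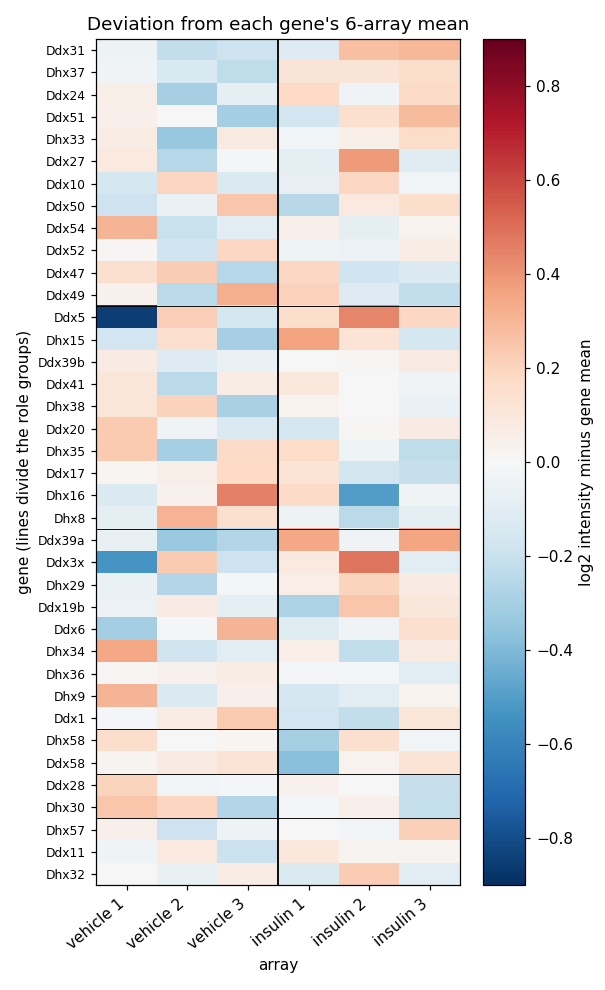
Log2 intensity minus the gene's own mean over 6 arrays, for the 38 genes (rows, divided by role) on the 3 vehicle and 3 insulin arrays (columns). The deepest blue cell is Ddx5 on vehicle replicate 1, at -0.85, followed by Ddx3x on the same array, and no column is of 1 colour.

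By name, 13 of 23 Ddx genes had a positive change (median 0.042) and 5 of 15 Dhx genes did (median -0.051); the difference between these subfamilies was not tested. Further detected probes existed for 17 members, and 15 of 24 such probes, or 62.5%, had the sign of the probe in use. Over all genes the share was 59.4%.

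Related helicases whose symbols do not match the name rule, and known partner proteins, were examined as lists. Of 10 related helicases tested, 0 passed the threshold (limma; 0 at an unadjusted p under 0.05), against 0.464% and 11% of all genes, and 6 changes were positive, with a median of 0.086. Over all genes 46.0% of changes were positive, with a median of -0.015. Those with the smallest p were Eif4a3, the core of the exon junction complex, at 0.24 ± 0.13, Ythdc2, a reader of methylated RNA needed in germ cells, at 0.19 ± 0.14, and Dicer1, the microRNA processing nuclease, at 0.18 ± 0.13. Eif4a1, the helicase that opens messenger leaders for translation, stood at -0.083. Of 34 partners and cofactors tested, 0 passed (limma; 1 higher and 0 lower at an unadjusted p under 0.05, against 4.8% and 6.15% of all genes), 22 changes were positive, and the median was 0.040. The higher one was Patl1, a decapping factor that binds Ddx6, at 0.33 ± 0.13 (limma adjusted p = 0.371). It was followed by Nkrf, a G-patch partner of Dhx15, at 0.27 ± 0.13, and Pdcd4, an inhibitor of Eif4a1, at -0.28 ± 0.14.

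**Figure D5:**
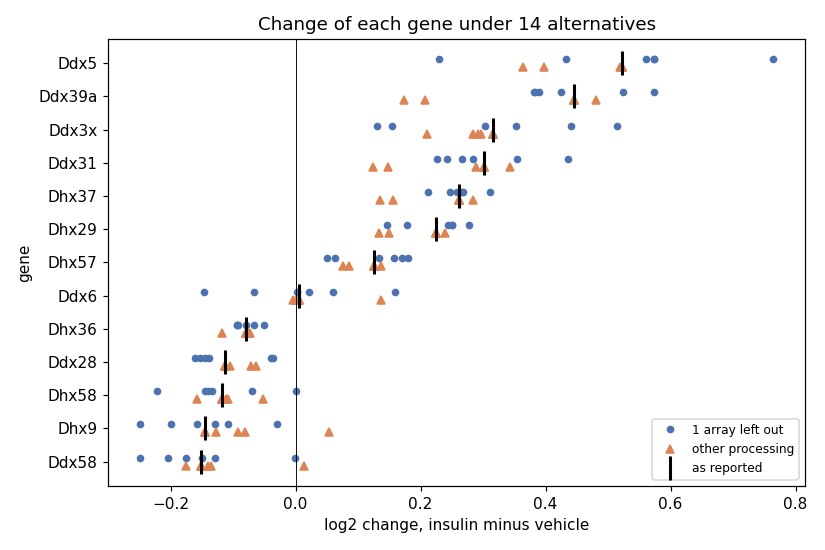
Log2 change of 13 helicase genes as reported (black bar), with 1 array left out (blue circles) and under the other processing alternatives (orange triangles). Ddx5 spans 0.23 to 0.76, Ddx39a 0.17 to 0.57, and values on both sides of 0 occur for Ddx6, Dhx9, Ddx58 and Dhx58.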

How the data were processed

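Expression was measured on 6 single-colour Illumina beadchips, 3 per group, with groups and replicate numbers taken from the sample titles. Per the file headers, the deposited non-normalized table gives a linear signal intensity for each of 45281 probes and its detection p-value. The submitters' processing notes name GenomeStudio, without a version or settings. The processed intensities the authors deposited equalled a quantile normalization of those signals to within 3.33e-06, with no background correction and no log.

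Signals were corrected with neqc (limma 3.58.1 in R 4.3.3, offset 16), quantile normalized and put on log2, which stretches differences of dim probes. Probes with 1 gene symbol and a detection p under 0.05 on at least 3 of 6 arrays were kept, and the brightest probe stood for its gene. The groups were compared with limma (lmFit, then eBayes; two-sided tests), adjusted by Benjamini-Hochberg over 9478 genes at a threshold of 0.05, without the replicate number. The procedure was also run on simulated signals with independent noise. How often it recovered changes of the size seen here is not reported. Symbols are those of the platform annotation, and Entrez identifiers of all 38 members matched the RefSeq table of GRCm38.p6. No slide or scan date was used, and the number of arrays limits precision.

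Members, role lists and alternatives were chosen with earlier results of these data known. Arrays were listed for members past the threshold, for those at an unadjusted p under 0.05 whose groups did not overlap, for the smallest p of each role, and for Ddx3x, Ddx5, Ddx6, Dhx9, Ddx58 and Dhx58. Ddx17, Dhx29 and Dhx36 were added after their values were seen.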

Additional observations from a re-analysis of the deposited data

How the results depend on the processing

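All 14 alternatives were planned: other background corrections and scalings, filters and probe summaries, another variance model, a replicate block and each array left out. The count of helicase genes past the threshold was 0 in all of them, and the lowest adjusted p was 0.120 (limma). It was that of Ddx5 with the replicate number as a block, where 75 of 9478 genes passed. Deviations of same-numbered arrays from their group means correlated at 0.090, 0.15 and 0.13. Arrays with different numbers were not compared, so these values do not settle whether replicates were paired. Of all genes tested, 44 passed as reported and 22 with the authors' deposited values, 29 with normexp fitted to the signals, 83 with a trended robust variance, 0 without the detection filter and 2 to 67 with 1 array left out.

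The members' median change stayed between -0.022 and 0.038. The count of members with groups that did not overlap was 4 to 6 of 38 with all arrays, against 12.8% to 16.4% of all genes. It was 5 to 11 with 1 array left out, where groups of 2 and 3 separate more easily (24.2% to 27.8% of all genes). Of the 38 members, 18 kept their sign throughout, 12 positive and 6 negative, and 20 did not. With 1 array left out Ddx6 ranged from -0.15 to 0.16, Dhx58 from -0.22 to 0.0010. Ddx6 reversed to -0.0047 with median scaling, -0.15 without vehicle replicate 1 and -0.066 without insulin replicate 3. With the mean of the detected probes, which takes in the positive further probes given above, Ddx58 reversed to 0.013 and Dhx9 to 0.054. Dhx58 reversed to 0.0010 without insulin replicate 1. Beyond which probes and arrays entered, the cause of these shifts was not tested.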
